A study of Mus musculus with 10 samples.

Results

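The genes described here encode 40 subunits of 3 families of chromatin complexes that repress transcription, the NuRD complex and the Polycomb complexes PRC2 and PRC1. They were chosen by name from the 57010 genes of the deposited table, as 15 NuRD, 9 PRC2 and 16 PRC1 genes, and all 40 passed the filter on low counts that left 18966 genes for testing. RNA was measured by bulk sequencing in CD8+ T cells from mouse spleen. The 3 cKO mice had the genotype Dusp2fl/fl-E8I-cre+/-, and the 2 control mice had Dusp2fl/fl-E8I-cre-/-. Both groups thus carried floxed Dusp2, which encodes a nuclear phosphatase of MAP kinases, and the cKO mice alone carried the cre recombinase, driven by an enhancer of the Cd8a locus that is active in CD8+ T cells. Carrying cre and losing Dusp2 therefore cannot be told apart. Cells of each mouse were kept for 24 h with beads that carry anti-CD3/CD28 and imitate antigen and co-stimulation, or for 24 h at rest without beads, and the 2 cultures were sequenced separately, which gave 10 libraries. The cKO mice 1 and 2 and control mouse 1 were male, cKO mouse 3 and control mouse 2 were female, and the labels used here give no age. For cKO mouse 3 the sample titles contradict the genotype, treatment and library name on record, and its 2 libraries were grouped by genotype and library name. The title of the study names chromatin remodelling and the effector programme of CD8+ T cells as the processes in which DUSP2 was examined.

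NuRD joins an ATP-driven nucleosome remodeller to histone deacetylases on a scaffold of MTA, MBD, GATAD2 and RBBP proteins. PRC2 methylates lysine 27 of histone H3, through EZH1 or EZH2, and PRC1 attaches ubiquitin to histone H2A, through RING1 or RNF2, while its CBX proteins read the methyl mark. In most positions the genome offers several paralogs, and which of them a cell makes sets the variant of the complex. In T cells, Polycomb and NuRD proteins are known to hold lineage and effector genes silent, and EZH2 in particular is known as a subunit that dividing cells make.

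Promoter sequences of 6 subunit genes are shown, chosen after the matches and the activation effects were known. Ezh2, Suz12 and Phf19 are the 3 members whose window held an E2F word, Bmi1 is an example of a gene that rose and held an E-box, and Ezh1 and Cbx7 are genes that fell and held neither. They are RefSeq windows of 300 bases (250 before and 50 after a transcript start) in the build GRCm38.p6, a build other than the one of the count table, and 33 of the 40 genes had such a window. The Ezh2 window is chr6:47594981-47595280 on the minus strand, Suz12 chr11:79992856-79993155 on the plus strand, Phf19 chr2:34913927-34914226 on the minus strand, Bmi1 chr2:18676768-18677067 on the plus strand, Ezh1 chr11:101226414-101226713 on the minus strand and Cbx7 chr15:79932597-79932896 on the minus strand. Each is printed 5′ to 3′ on the strand of its gene. Capitals mark E2F words, the letters TTTGGCGC, TTTGCCGC, TTTCGCGC or TTTCCCGC on either strand, and E-boxes, the letters CACGTG, which read the same on both strands.
Ezh2: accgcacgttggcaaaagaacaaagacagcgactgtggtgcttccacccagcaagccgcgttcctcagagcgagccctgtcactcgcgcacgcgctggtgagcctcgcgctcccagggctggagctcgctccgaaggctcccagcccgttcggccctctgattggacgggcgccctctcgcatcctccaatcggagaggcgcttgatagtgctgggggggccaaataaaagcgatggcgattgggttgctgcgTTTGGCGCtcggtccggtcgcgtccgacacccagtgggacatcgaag
Suz12: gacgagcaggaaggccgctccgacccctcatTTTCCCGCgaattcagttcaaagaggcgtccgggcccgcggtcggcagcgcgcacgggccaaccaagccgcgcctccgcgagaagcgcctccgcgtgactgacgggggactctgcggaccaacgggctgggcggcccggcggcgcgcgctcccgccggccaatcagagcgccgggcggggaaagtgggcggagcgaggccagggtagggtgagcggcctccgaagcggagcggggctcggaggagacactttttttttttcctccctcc
Phf19: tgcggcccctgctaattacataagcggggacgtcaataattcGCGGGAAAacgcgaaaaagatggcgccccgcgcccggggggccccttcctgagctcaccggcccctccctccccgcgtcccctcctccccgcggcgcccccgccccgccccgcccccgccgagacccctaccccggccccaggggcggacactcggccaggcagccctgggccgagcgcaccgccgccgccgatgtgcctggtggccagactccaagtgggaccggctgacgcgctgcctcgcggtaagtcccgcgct
Bmi1: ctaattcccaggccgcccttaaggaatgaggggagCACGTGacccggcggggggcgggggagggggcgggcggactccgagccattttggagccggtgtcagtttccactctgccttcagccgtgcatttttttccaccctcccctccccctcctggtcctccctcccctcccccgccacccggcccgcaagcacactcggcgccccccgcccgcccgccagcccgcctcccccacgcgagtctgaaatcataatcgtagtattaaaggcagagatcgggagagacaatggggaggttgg
Ezh1: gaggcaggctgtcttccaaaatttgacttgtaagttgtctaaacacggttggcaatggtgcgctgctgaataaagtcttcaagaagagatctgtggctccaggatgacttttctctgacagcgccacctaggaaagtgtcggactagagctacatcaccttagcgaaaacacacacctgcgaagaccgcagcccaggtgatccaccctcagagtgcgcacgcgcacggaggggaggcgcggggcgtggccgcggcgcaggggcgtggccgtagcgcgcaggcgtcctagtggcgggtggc
Cbx7: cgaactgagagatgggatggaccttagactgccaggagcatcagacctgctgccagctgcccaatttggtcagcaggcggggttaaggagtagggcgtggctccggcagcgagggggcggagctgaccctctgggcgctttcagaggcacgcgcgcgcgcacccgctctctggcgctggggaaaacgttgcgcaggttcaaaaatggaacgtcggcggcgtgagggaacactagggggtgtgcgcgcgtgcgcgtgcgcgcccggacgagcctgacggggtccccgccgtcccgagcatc
An E2F word stood in the windows of Ezh2, Suz12 and Phf19. By direction of the activation effect given below, it stood in 2 of the 17 windowed genes that were higher in both genotypes, in 0 of the 9 that were lower and in 1 of the other 7, against 2.6% of all 27025 genes with a window. The E-box stood in 3 of 17 (Bmi1, Phc2 and Rbbp4), 3 of 9 (Cbx6, Cbx8 and Phc3) and 1 of 7 (Pcgf2), against 8.09% of all genes. The GC box, GGGCGG on either strand, stood in 15 of 17, 6 of 9 and 7 of 7, against 38.2% of all genes. The 27025 genes were taken whether or not they were expressed in these cells, while all subunit genes passed the filter on low counts. The 2 sets are thus unlike, and shares among expressed genes were not computed. An E2F word can share letters with a neighbouring GC box. A match is a description of letters, not of a bound site, and the absence of a match says only that these letters are not in the window.

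The libraries held 51203786 to 65135435 counts, so that the floor of 3 counts for an undetected gene lay between 0.0461 and 0.0586 CPM. Levels within a gene are given as CPM after TMM scaling of the library sizes. Dusp2 had 56.3, 46.4 and 52.6 CPM in activated cKO cells against 292 and 299 CPM in activated control cells, and 24.98, 24.8 and 28.1 CPM in rested cKO cells against 87.8 and 97.4 CPM in rested control cells. Within a state no cKO library reached the level of a control library, in the direction of the labels. The 5 CD8 T cell markers summed to between 1604 and 1724 CPM in activated and between 2132 and 2241 CPM in rested cKO cells, and to between 1648 and 1684 CPM in activated and between 2169 and 2238 CPM in rested control cells. Of 5 markers of CD4 and regulatory T cells, 3 rose after activation in both genotypes. The 8 markers of NK cells summed to at most 7.35 CPM and the 7 myeloid markers to at most 18.3 CPM in any library. The 6 markers of B cells summed to 225.6 to 360.5 CPM, nearly all of it Ighm, which fell after activation (246 ± 28.4 CPM in activated and 318 ± 35.2 CPM in rested cKO cells). What part these cells have in the results was not tested. In bulk RNA, fewer cells of a type and less RNA per cell cannot be told apart.

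Activation moved most of these genes. Paralogs moved in opposite directions among the ATPases and the MTA, MBD, EZH, PCL, PCGF and PHC genes, while the CBX genes all fell and the RBBP, JARID2 and AEBP2 genes rose. A gene was called where its adjusted p (edgeR quasi-likelihood test, Benjamini-Hochberg adjustment over all genes tested) was below 0.05. In cKO cells 19 of the 40 genes were higher and 14 lower in activated than in rested cells, against 31.5% and 31.9% of all genes tested. In control cells 18 were higher and 14 lower, against 28.5% and 27.6% of all genes tested. The same 18 genes were higher in both genotypes and the same 14 were lower in both, 7 were called in neither, and Phf19 was called in cKO cells alone. The share of all genes called alike in both genotypes was not computed. The joint counts here and by complex below therefore describe these genes without a background. The comparisons in the 2 genotypes share no library. The median log2 fold change of the 40 genes was 0.14 in cKO and 0.18 in control cells, beside -0.01 and 0.00 over all genes tested. The libraries of activated and rested cKO cells did not overlap for 22 genes that were higher and 14 that were lower, against 33.5% and 33.3% of all genes tested, and those of control cells for 20 higher and 14 lower, against 38.7% and 38.1%. By animal, 22 genes were higher and 14 lower in activated than in rested cells in all 5 mice, against 34.6% and 34.9% of all genes tested, and 4 were mixed. Of all genes tested, 63.4% in cKO and 56.1% in control cells passed the same threshold. With a filter of at least 5 CPM in 2 libraries, 4399 of 10957 genes were higher and 4472 lower in cKO cells. In control cells 4150 of them were higher and 4119 lower. Of the 40 genes, Chd5 and Phf19 alone did not pass that filter. Most genes at such levels thus changed as well, and the counts of subunit genes are not read as an excess.

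**Figure D1:**
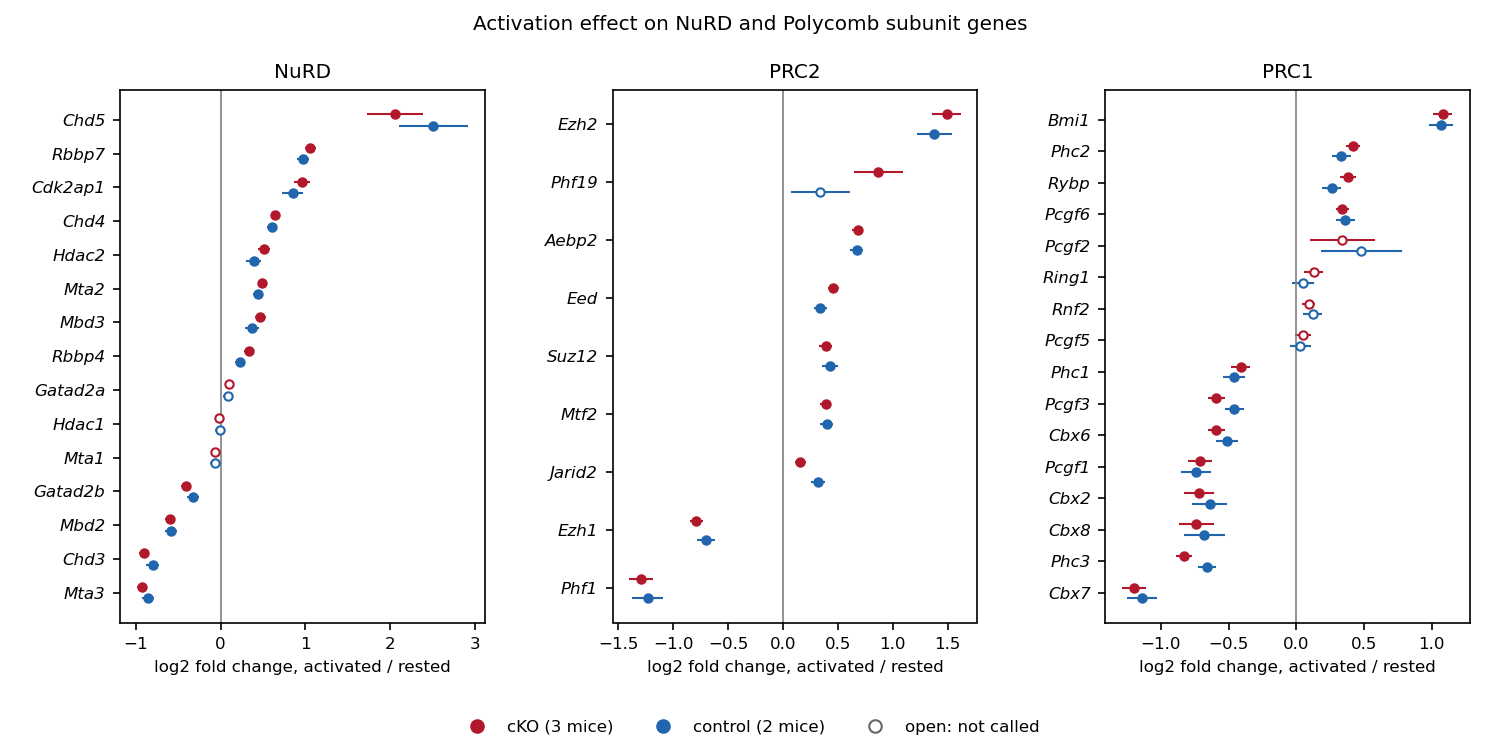
Log2 fold change, activated over rested, of the 40 subunit genes in 3 panels with different horizontal scales (red, 3 cKO mice; blue, 2 control mice; bars, standard error; open points, not called). The points of both genotypes lie close together for most genes, from Chd5 and Ezh2 at the high end to Phf1 and Cbx7 at the low end.

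Among the NuRD genes, activated cells had more RNA of the remodeller Chd4 and less of its paralog Chd3, more of the scaffold Mta2 and less of Mta3, and more of Mbd3 and less of Mbd2. Of the 15 NuRD genes, 8 rose and 4 fell in both genotypes, and 3 were called in neither. Chd4, which encodes the main remodelling ATPase of NuRD in most tissues, had 966, 943 and 1070 CPM in activated and 630.4, 614 and 672 CPM in rested cKO cells. It had 974 and 1026 CPM in activated and 642 and 668 CPM in rested control cells. All 5 activated libraries lay above all 5 rested ones, with log2 fold change 0.64 ± 0.05 in cKO cells (edgeR adjusted p = 8.42e-08) and 0.61 ± 0.06 in control cells (edgeR adjusted p = 1.5e-06). Chd3, an alternative ATPase, had 327, 344 and 361 CPM in activated and 616, 597 and 722 CPM in rested cKO cells. It had 382 and 360.4 CPM in activated and 629.7 and 664 CPM in rested control cells. Here all activated libraries lay below all rested ones, with log2 fold change -0.90 ± 0.06 in cKO cells (edgeR adjusted p = 3.45e-08) and -0.80 ± 0.08 in control cells (edgeR adjusted p = 1.29e-06).

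FPKM divides by gene length, so that levels of different genes can be set side by side. It uses a fixed length per gene, whichever transcripts these cells make. On this scale Chd3 and Chd4 were at nearly equal levels at rest. Chd4 held 75.04% ± 0.859 (SD) of the summed FPKM of Chd3, Chd4 and Chd5 in activated and 51.1% ± 1.42 in rested cKO cells (n = 3), and 73.8% ± 1.496 in activated and 51.6% ± 0.235 in rested control cells (n = 2). The summed FPKM of the family differed less, at 169 ± 9.79 in activated and 153 ± 12.3 in rested cKO cells. Chd5, known as a mainly neural ATPase, had 3.65, 3.97 and 2.84 CPM in activated and 0.522, 0.765 and 1.27 CPM in rested cKO cells. It had 4.12 and 3.65 CPM in activated and 0.377 and 1.03 CPM in rested control cells. Its log2 fold changes were the highest of the 40 genes, 2.06 ± 0.33 in cKO cells (edgeR adjusted p = 0.000168) and 2.51 ± 0.41 in control cells (edgeR adjusted p = 0.000257). Its share of the family's FPKM stayed small, at 0.222% ± 0.0485 in activated and 0.0562% ± 0.0213 in rested cKO cells.

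Mta2, a scaffold that binds the deacetylases, had 385, 369 and 387 CPM in activated and 275, 265 and 273 CPM in rested cKO cells. It had 368 and 371 CPM in activated and 266 and 277 CPM in rested control cells. The activated libraries lay above the rested ones without overlap, with log2 fold change 0.49 ± 0.05 in cKO cells (edgeR adjusted p = 7.2e-07) and 0.44 ± 0.06 in control cells (edgeR adjusted p = 1.88e-05). Mta3, a paralog first described in breast epithelium and also known from B cells, had 85.2, 96.8 and 85.4 CPM in activated and 169.9, 170.1 and 169.6 CPM in rested cKO cells. It had 95.6 and 83.3 CPM in activated and 166 and 158 CPM in rested control cells. Its activated libraries all lay below its rested ones, with log2 fold change -0.93 ± 0.06 in cKO cells (edgeR adjusted p = 1.48e-08) and -0.86 ± 0.07 in control cells (edgeR adjusted p = 3.89e-07). Mta1, the third scaffold, was called in neither genotype (log2 fold change -0.06 in cKO and -0.06 in control cells). Mta3 made up 11.1% ± 0.949 of the family's FPKM in activated and 22.5% ± 0.196 in rested cKO cells, and 11.2% ± 1.21 in activated and 21.4% ± 1.21 in rested control cells.

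Mbd2 and Mbd3 encode mutually exclusive subunits, of which MBD2 binds methylated DNA while MBD3 in mammals does so poorly. Mbd3 had 97.5, 91.1 and 112 CPM in activated and 74.8, 66.9 and 73.6 CPM in rested cKO cells. It had 90.7 and 108 CPM in activated and 69.1 and 84.8 CPM in rested control cells. The groups did not overlap, with log2 fold change 0.47 ± 0.06 in cKO cells (edgeR adjusted p = 1.86e-05) and 0.37 ± 0.08 in control cells (edgeR adjusted p = 0.0012). Mbd2 had 132, 152 and 143 CPM in activated and 210, 220.1 and 215 CPM in rested cKO cells. It had 142 and 138 CPM in activated and 211 and 209 CPM in rested control cells. Its activated libraries were all lower, with log2 fold change -0.60 ± 0.06 in cKO cells (edgeR adjusted p = 6.58e-07) and -0.58 ± 0.07 in control cells (edgeR adjusted p = 8.55e-06). Mbd3 held 53.2% ± 3.51 of the pair's FPKM in activated and 35.04% ± 1.88 in rested cKO cells. In control cells it held 53.2% ± 3.56 in activated and 37.1% ± 3.57 in rested cells. In activated cKO cells its share ran from 49.2% to 55.9%, so Mbd3 did not exceed Mbd2 in every mouse. Their summed FPKM was 96.8 ± 5.28 in activated and 101 ± 1.35 in rested cKO cells.

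The histone chaperones RBBP4 and RBBP7 serve in both NuRD and PRC2. Rbbp7, which lies on chromosome X, had 259.9, 248 and 299 CPM in activated and 127, 128 and 130 CPM in rested cKO cells. It had 233 and 269.6 CPM in activated and 126 and 130.3 CPM in rested control cells. Activated levels were far above the rested ones in the cells of every mouse, with log2 fold change 1.06 ± 0.06 in cKO cells (edgeR adjusted p = 3.57e-09) and 0.97 ± 0.07 in control cells (edgeR adjusted p = 1.06e-07). Rbbp4 moved less, by 0.33 in cKO and 0.23 in control cells on the log2 scale. In the control comparison its adjusted p was 0.0594 without control mouse 1 and 0.0848 without control mouse 2. The summed FPKM of the pair was 121 ± 9.63 in activated and 63.5 ± 1.13 in rested cKO cells, and 114 ± 9.39 in activated and 63.7 ± 1.81 in rested control cells.

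Cdk2ap1, a small subunit first known as a binder of the cell cycle kinase CDK2, had 24, 20.7 and 30.4 CPM in activated and 13.4, 12.02 and 13.1 CPM in rested cKO cells. It had 22.4 and 24.3 CPM in activated and 12.98 and 12.9 CPM in rested control cells. All activated libraries exceeded all rested ones, with log2 fold change 0.96 ± 0.10 in cKO cells (edgeR adjusted p = 2.25e-06) and 0.85 ± 0.12 in control cells (edgeR adjusted p = 6.11e-05). Of the deacetylases, Hdac2 rose by 0.51 in cKO and 0.39 in control cells on the log2 scale. Without control mouse 2 the adjusted p of Hdac2 in control cells was 0.129. Hdac1, the more abundant of the pair in FPKM, was called in neither genotype, and its 95% intervals were -0.12 to 0.09 in cKO and -0.14 to 0.11 in control cells. Of the GATAD2 proteins, which link the deacetylase module to the remodeller, Gatad2b fell by 0.41 in cKO cells and by 0.33 in control cells on the log2 scale. Without control mouse 2 its adjusted p in control cells was 0.0511. Gatad2a was called in neither genotype (0.10 in cKO and 0.09 in control cells). With other settings it was called higher. In cKO cells its adjusted p was 0.0342 with DESeq2 size factors, 0.0185 with the filter at 5 CPM, 0.0347 with DESeq2's Wald test, 0.00736 with limma on FPKM and 0.00668 with plain library totals, and in control cells it was 0.0312 with limma and 0.036 with plain totals.

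**Figure D2:**
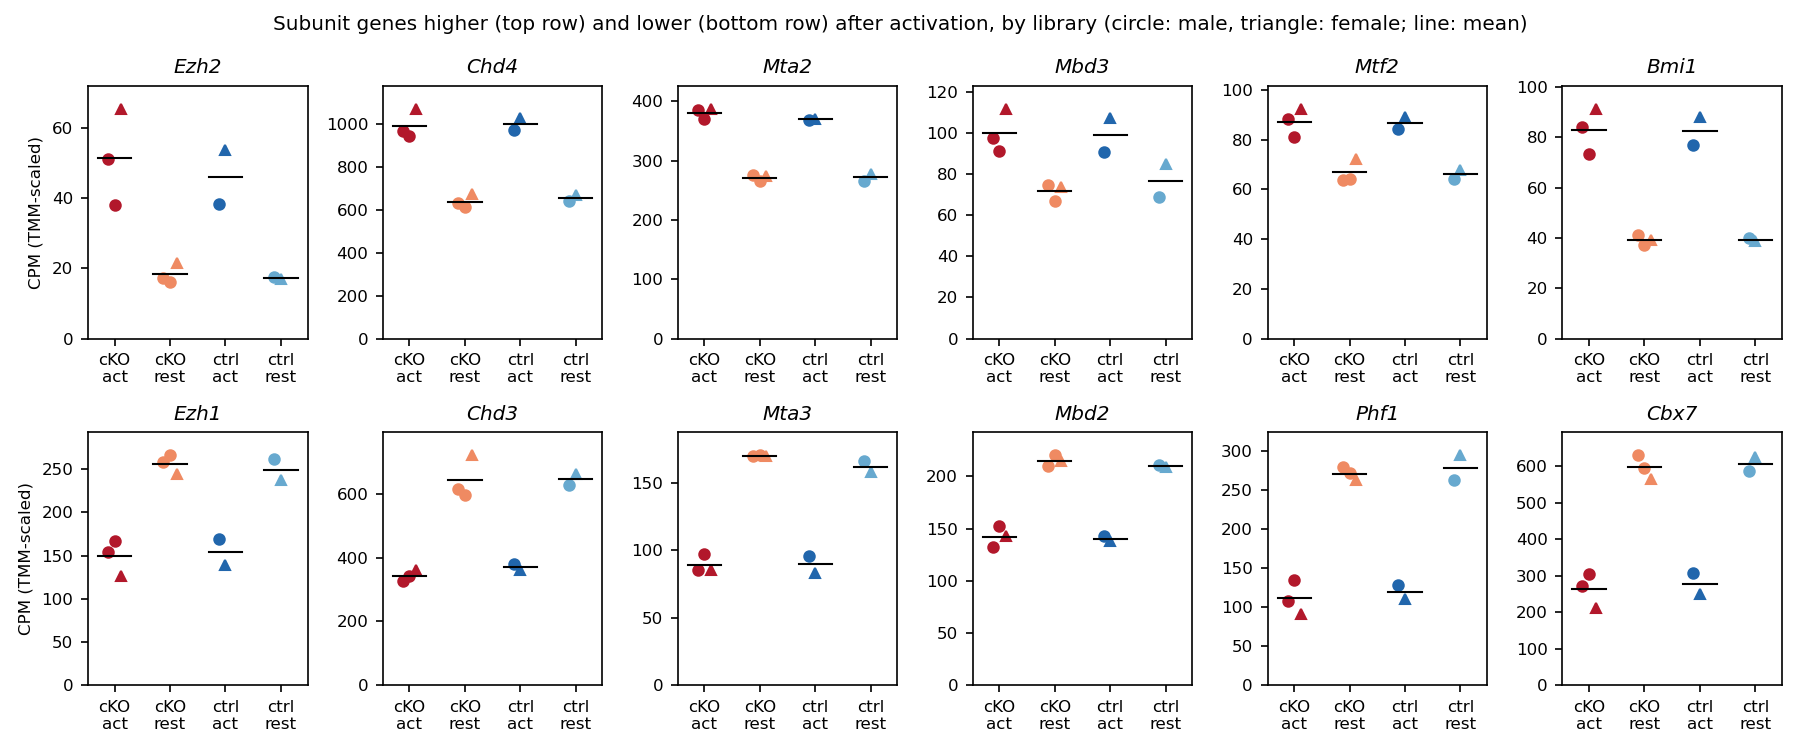
Level in CPM (TMM-scaled) of 12 subunit genes in each of the 10 libraries, by group (act, activated; rest, rested; ctrl, control; circle, male; triangle, female; line, group mean). In the upper row all activated libraries lie above all rested ones, and in the lower row all lie below. Relative to the group mean, the spread between mice is widest for activated Ezh2, from 38.1 to 65.3 CPM in cKO cells.

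Most PRC2 genes rose after activation, while the methyltransferase Ezh1 and the accessory gene Phf1 fell. Of the 9 genes, 6 rose and 2 fell in both genotypes, and Phf19 was called in cKO cells alone. Ezh2, the methyltransferase with the stronger activity, had 50.99, 38.1 and 65.3 CPM in activated and 17.2, 15.97 and 21.4 CPM in rested cKO cells. It had 38.2 and 53.7 CPM in activated and 17.6 and 16.9 CPM in rested control cells. Activated libraries lay above rested ones in every case, with log2 fold change 1.49 ± 0.13 in cKO cells (edgeR adjusted p = 4.46e-06) and 1.38 ± 0.16 in control cells (edgeR adjusted p = 5.12e-05). Ezh1, its weaker paralog typical of resting cells, had 154, 167 and 126 CPM in activated and 258, 266 and 245 CPM in rested cKO cells. It had 169.6 and 138 CPM in activated and 261 and 238 CPM in rested control cells. All activated libraries lay below the rested ones, with log2 fold change -0.79 ± 0.06 in cKO cells (edgeR adjusted p = 1.08e-07) and -0.70 ± 0.08 in control cells (edgeR adjusted p = 3.74e-06).

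Per length, Ezh1 nevertheless stayed the more abundant transcript in every library. Ezh2 held 27.9% ± 8.26 of the summed FPKM of the pair in activated and 7.36% ± 1.35 in rested cKO cells, and 25.1% ± 7.14 in activated and 7.17% ± 0.273 in rested control cells. In FPKM, Ezh2 was at 7.88 ± 2.06 in activated and 2.67 ± 0.431 in rested cKO cells, beside Ezh1 at 20.5 ± 2.99 in activated and 33.7 ± 1.25 in rested cKO cells. The SDs of the activated share were wide. Within each genotype, the mice had the same order by Ezh2 as by replication genes in activated cells, but not in rested cells. The summed CPM of 18 replication and cycling genes was 1178, 1004 and 1425 in activated and 634.6, 614.4 and 624.9 in rested cKO cells, and 947.8 and 1223 in activated and 615.9 and 641 in rested control cells. The activated libraries of the female mice, cKO mouse 3 and control mouse 2, had the highest sums and the highest Ezh2 of all 10 libraries, and the lowest Ezh1. What part cycling has in the change of Ezh2 was not tested.

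The core subunits EED, which reads the methyl mark, and SUZ12, which holds the complex together, rose less. Eed had 88.5, 82.2 and 88.8 CPM in activated and 61.9, 62.2 and 64.3 CPM in rested cKO cells. It had 79.1 and 84.9 CPM in activated and 62.3 and 67.3 CPM in rested control cells. No activated library overlapped a rested one, with log2 fold change 0.46 ± 0.05 in cKO cells (edgeR adjusted p = 2.29e-06) and 0.34 ± 0.06 in control cells (edgeR adjusted p = 0.000329). Suz12 rose by 0.39 in cKO and 0.43 in control cells on the log2 scale.

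PHF1, MTF2 and PHF19 are alternative accessory proteins of the PRC2.1 form, each of which helps to bring it to CpG-rich DNA or to marked chromatin. Phf1 had 108, 134 and 90.8 CPM in activated and 279, 271 and 262 CPM in rested cKO cells. It had 128 and 109.6 CPM in activated and 262 and 294 CPM in rested control cells. This fall was the steepest of the 40 genes in both genotypes, with log2 fold change -1.29 ± 0.11 in cKO cells (edgeR adjusted p = 4.29e-06) and -1.23 ± 0.14 in control cells (edgeR adjusted p = 3.82e-05). Mtf2 had 88.2, 81.1 and 92.4 CPM in activated and 63.7, 64.4 and 72.4 CPM in rested cKO cells. It had 84.4 and 89.2 CPM in activated and 64.2 and 67.7 CPM in rested control cells. Its activated libraries were all higher than its rested ones, with log2 fold change 0.39 ± 0.05 in cKO cells (edgeR adjusted p = 1.89e-05) and 0.40 ± 0.06 in control cells (edgeR adjusted p = 0.000127). Phf1 thus held 66.2% ± 5.91 of the summed FPKM of the 3 genes in activated and 86.5% ± 1.11 in rested cKO cells, and 68.4% ± 3.204 in activated and 86.95% ± 0.429 in rested control cells. Phf19 was low, with 3.12, 2.604 and 3.92 CPM in activated and 2.29, 1.51 and 1.44 CPM in rested cKO cells. It had 2.34 and 2.32 CPM in activated and 1.61 and 2.09 CPM in rested control cells. Activated libraries exceeded rested ones in both genotypes, yet the change was called in cKO cells (log2 fold change 0.87 ± 0.22, edgeR adjusted p = 0.00309) and not in control cells (0.34 ± 0.27, edgeR adjusted p = 0.301). The difference between the 2 effects was 0.53 ± 0.34 (interaction, edgeR adjusted p = 1), so a difference between genotypes was not shown. Without cKO mouse 3 the adjusted p in cKO cells was 0.0568.

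JARID2 and AEBP2 mark the PRC2.2 form, which recognises the ubiquitin mark of PRC1. Aebp2 had 271, 249.6 and 257 CPM in activated and 163, 156 and 166 CPM in rested cKO cells. It had 253 and 271 CPM in activated and 164 and 166 CPM in rested control cells. Its groups were well apart, with log2 fold change 0.68 ± 0.05 in cKO cells (edgeR adjusted p = 7.64e-08) and 0.67 ± 0.06 in control cells (edgeR adjusted p = 1.12e-06). Jarid2 rose less, by 0.16 ± 0.05 in cKO cells (edgeR adjusted p = 0.014) and 0.32 ± 0.06 in control cells (edgeR adjusted p = 0.000426). Without cKO mouse 1 its adjusted p in cKO cells was 0.0942.

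In PRC1, the RING ligases did not pass the test, the CBX genes fell, and the PCGF and PHC families were split. Of the 16 genes, 4 rose and 8 fell in both genotypes. Ring1 and Rnf2, the catalytic subunits, changed by 0.13 and 0.09 in cKO cells and by 0.05 and 0.12 in control cells on the log2 scale. Their 95% intervals in cKO cells were -0.01 to 0.28 for Ring1 and -0.03 to 0.20 for Rnf2. With plain library totals in place of TMM, Ring1 in cKO cells and Rnf2 in both genotypes were called higher (edgeR adjusted p = 0.0199 for Ring1, 0.0242 for Rnf2 in cKO cells and 0.0287 for Rnf2 in control cells). The same calls were made with limma on FPKM (limma adjusted p = 0.0297 for Ring1, 0.0287 for Rnf2 in cKO cells and 0.0343 for Rnf2 in control cells). Ring1 in cKO cells was also called with the filter at 5 CPM (edgeR adjusted p = 0.0489).

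PCGF proteins partner the RING ligases and define the 6 variants of PRC1, with PCGF2 and BMI1 in the canonical forms. Bmi1, known as a factor of stem cell and lymphocyte self-renewal, had 84.2, 73.3 and 91.3 CPM in activated and 40.96, 37.3 and 39.3 CPM in rested cKO cells. It had 76.9 and 88.3 CPM in activated and 39.8 and 38.8 CPM in rested control cells. Every activated library lay above every rested one, with log2 fold change 1.08 ± 0.07 in cKO cells (edgeR adjusted p = 2.63e-08) and 1.07 ± 0.09 in control cells (edgeR adjusted p = 3.74e-07). Pcgf1, the partner of KDM2B and BCOR, had 12.6, 14.5 and 11.96 CPM in activated and 23.7, 21.4 and 18.8 CPM in rested cKO cells. It had 13.7 and 12.2 CPM in activated and 21.3 and 21.8 CPM in rested control cells. Its activated libraries were all lower, with log2 fold change -0.71 ± 0.09 in cKO cells (edgeR adjusted p = 8.11e-06) and -0.74 ± 0.11 in control cells (edgeR adjusted p = 4.85e-05). Bmi1 held 40.4% ± 3.33 of the summed FPKM of the 6 PCGF genes in activated and 22.4% ± 1.43 in rested cKO cells, while Pcgf1 held 15.3% ± 2.06 in activated and 29.2% ± 1.51 in rested cKO cells. In control cells Bmi1 held 40.6% ± 3.44 in activated and 22.7% ± 0.382 in rested cells, and Pcgf1 held 15.3% ± 1.501 in activated and 29.99% ± 1.54 in rested cells. By FPKM, the PCGF gene with the largest share was therefore Bmi1 after activation and Pcgf1 at rest. In CPM, Pcgf1 lay below Bmi1 at rest as well (means of 21.3 and 39.2 CPM in cKO cells). The order at rest thus rests on the gene lengths used.

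Pcgf3, a partner in variant PRC1, had 30.4, 31.5 and 29.5 CPM in activated and 44.9, 45.5 and 47.4 CPM in rested cKO cells. It had 34.2 and 32.5 CPM in activated and 45.6 and 45.98 CPM in rested control cells. Activated libraries were lower without overlap, with log2 fold change -0.59 ± 0.06 in cKO cells (edgeR adjusted p = 6.74e-07) and -0.46 ± 0.07 in control cells (edgeR adjusted p = 6.92e-05). Pcgf6, a partner of MGA and E2F6, had 54.4, 55.05 and 56.5 CPM in activated and 40.6, 43.9 and 46.5 CPM in rested cKO cells. It had 55.7 and 56.2 CPM in activated and 43.5 and 43.6 CPM in rested control cells. It moved the other way, above its rested libraries throughout, with log2 fold change 0.34 ± 0.05 in cKO cells (edgeR adjusted p = 9.78e-05) and 0.36 ± 0.07 in control cells (edgeR adjusted p = 0.000442). Pcgf5 and Pcgf2 were called in neither genotype in the main fit. With no low-count filter Pcgf2 was called higher in cKO and control cells (edgeR adjusted p = 0.00485 and 0.00252). With only the groups compared it was called higher in control cells (edgeR adjusted p = 0.0482). The log2 fold changes of Pcgf5 were 0.05 in cKO and 0.03 in control cells, and those of Pcgf2 were 0.34 in cKO and 0.48 in control cells with standard errors of 0.24 and 0.30. By mouse, the log2 ratio of activated over rested Pcgf2 was 0.98 in cKO mouse 3 and 1.00 in control mouse 2, both female. It was 0.08, 0.04 and 0.03 in the 3 males, so the average over a genotype describes neither set of mice. Sex goes with the number that begins the mouse names, and the 2 cannot be told apart. Rybp, which encodes the alternative to CBX proteins in variant PRC1, rose by 0.38 in cKO and 0.26 in control cells. In control cells its adjusted p was 0.159 without control mouse 1 and 0.0521 without control mouse 2.

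All 4 CBX genes among the 40 fell in both genotypes. Cbx7, the reader most abundant here, had 272, 303 and 211 CPM in activated and 629, 594 and 565 CPM in rested cKO cells. It had 307 and 249 CPM in activated and 586 and 626 CPM in rested control cells. All rested libraries lay far above all activated ones, with log2 fold change -1.20 ± 0.09 in cKO cells (edgeR adjusted p = 3.29e-07) and -1.14 ± 0.11 in control cells (edgeR adjusted p = 4.46e-06). Cbx8 had 5.202, 6.398 and 5.298 CPM in activated and 9.52, 9.41 and 9.28 CPM in rested cKO cells. It had 7.09 and 5.16 CPM in activated and 9.36 and 10.1 CPM in rested control cells. Its activated libraries were all lower as well, with log2 fold change -0.74 ± 0.13 in cKO cells (edgeR adjusted p = 0.000153) and -0.68 ± 0.15 in control cells (edgeR adjusted p = 0.0019). Without control mouse 2 its adjusted p in control cells was 0.168. Cbx2, which compacts nucleosomes, fell by 0.72 in cKO and by 0.64 in control cells, and Cbx6 fell by 0.59 in cKO and by 0.51 in control cells. Cbx7 held 83.1% ± 2.44 of their summed FPKM in activated and 87.7% ± 1.25 in rested cKO cells. The sum itself was 49.6 ± 7.68 in activated and 102 ± 3.48 in rested cKO cells, and 52.6 ± 7.79 in activated and 104 ± 4.42 in rested control cells.

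PHC proteins join PRC1 complexes into larger assemblies. Phc2 had 140.2, 145 and 163 CPM in activated and 113, 108 and 112 CPM in rested cKO cells. It had 137 and 151 CPM in activated and 114 and 113 CPM in rested control cells. It was higher in every activated library, with log2 fold change 0.42 ± 0.05 in cKO cells (edgeR adjusted p = 1.28e-05) and 0.33 ± 0.07 in control cells (edgeR adjusted p = 0.000767). Without control mouse 2 its adjusted p in control cells was 0.0629. Phc3 had 175, 169 and 139.7 CPM in activated and 286, 296 and 278 CPM in rested cKO cells. It had 197 and 170.1 CPM in activated and 305 and 272 CPM in rested control cells. It was lower in every activated library, with log2 fold change -0.83 ± 0.06 in cKO cells (edgeR adjusted p = 2.37e-08) and -0.66 ± 0.07 in control cells (edgeR adjusted p = 2.61e-06). Phc1 fell by 0.41 in cKO and by 0.46 in control cells on the log2 scale. Phc2 held 56.9% ± 3.52 of the family's FPKM in activated and 38.3% ± 0.763 in rested cKO cells, and 53.8% ± 3.11 in activated and 38.1% ± 0.128 in rested control cells. Phc3 held the largest share at rest in cKO cells, at 39.9% ± 1.93, but its distance from Phc2 was within the spread between mice.

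**Figure D3:**
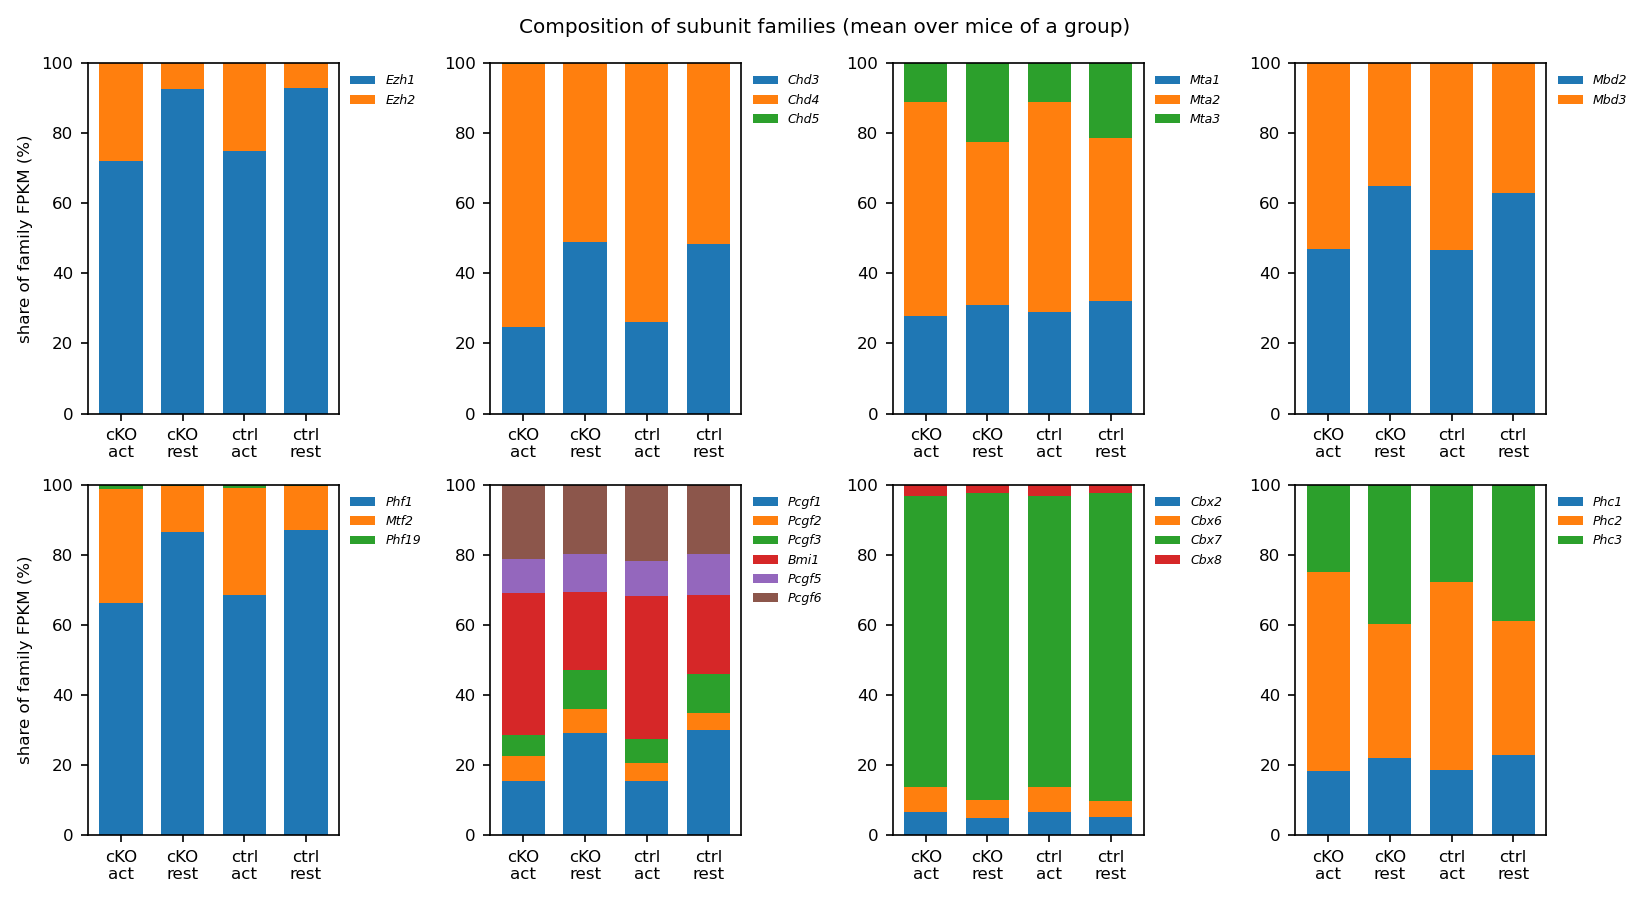
Share of each paralog in the summed FPKM of its family, as the mean over the mice of a group (act, activated; rest, rested; ctrl, control). Chd4, Mta2, Mbd3, Mtf2, Bmi1 and Phc2 take larger shares in activated than in rested cells of both genotypes, and Ezh2 takes 27.9% in activated and 7.36% in rested cKO cells.

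Levels of the 40 genes spanned a wide range. In activated cKO cells Chd4 (127 ± 8.301 FPKM), Mta2 (95.03 ± 2.12 FPKM) and Rbbp7 (94.6 ± 9.12 FPKM) were highest and Chd5 (0.372 ± 0.06299 FPKM) and Phf19 (0.652 ± 0.132 FPKM) lowest. Mta2 and Rbbp7 did not differ beyond their spread. In rested cKO cells Cbx7 was highest (89.8 ± 4.305 FPKM), followed by Chd4 (77.8 ± 4.05 FPKM), Phf1 (75.8 ± 1.95 FPKM) and Chd3 (74.7 ± 8.23 FPKM), of which the last 3 did not differ beyond their spread.

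Other genes of these pathways changed in both directions. Of 35 further NuRD and Polycomb partners, 33 were tested, of which 8 rose and 17 fell in cKO cells and 8 rose and 14 fell in control cells. Over all genes tested 31.5% rose and 31.9% fell in cKO cells and 28.5% rose and 27.6% fell in control cells. The median log2 fold change of the 33 was -0.16 in cKO and -0.14 in control cells. Kdm2b, which brings PCGF1-containing PRC1 to CpG islands, had 175 ± 18.8 CPM in activated and 42.4 ± 5.85 CPM in rested cKO cells, and 179 ± 13.2 CPM in activated and 42.2 ± 1.61 CPM in rested control cells. It rose by 2.04 in cKO and 2.08 in control cells on the log2 scale, opposite to Pcgf1. Bcl11b, a T cell identity factor that binds NuRD, had 129 ± 7.299 CPM in activated and 264 ± 4.45 CPM in rested cKO cells, and 139 ± 4.99 CPM in activated and 273 ± 8 CPM in rested control cells. Bcl11b fell by 1.03 in cKO and by 0.98 in control cells on the log2 scale.

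Of 12 erasers and opponents of the Polycomb marks, 11 were tested, and 3 rose and 8 fell in each genotype, beside the same shares of all genes (31.5% and 31.9% in cKO cells, 28.5% and 27.6% in control cells). Their median log2 fold change was -0.36 in cKO and -0.29 in control cells. Kdm6b, a demethylase of the PRC2 mark, had 594 ± 51.4 CPM in activated and 152 ± 26.9 CPM in rested cKO cells, and 644 ± 39.8 CPM in activated and 161 ± 30.4 CPM in rested control cells. It was far above its rested level in both genotypes (1.97 in cKO and 2.01 in control cells on the log2 scale). Kmt2c, a methyltransferase of enhancers that opposes Polycomb, had 249 ± 21.8 CPM in activated and 653 ± 33.5 CPM in rested cKO cells, and 306 ± 28.4 CPM in activated and 664 ± 20.8 CPM in rested control cells. Its paralog Kmt2d fell in both genotypes as well.

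Among genes that Polycomb complexes are known to silence, 5 of 18 classical targets such as Hox genes passed the filter on low counts, and the 18 summed to between 3.11 and 6.35 CPM in any library. Of the 5, 2 rose and 3 fell in cKO cells, beside 31.5% and 31.9% of all genes tested. In control cells 1 rose and 2 fell, beside 28.5% and 27.6%. At such low levels these calls are not read as a result about Polycomb silencing. Of 12 genes of naive and memory CD8+ T cells, 5 rose and 7 fell in each genotype, beside 31.5% and 31.9% of all genes in cKO cells and 28.5% and 27.6% in control cells, with a median log2 fold change of -0.83 in cKO and -0.82 in control cells. Tcf7, a factor of the naive and memory states, had 1078 ± 103 CPM in activated and 2231 ± 63.8 CPM in rested cKO cells, and 1114 ± 91.9 CPM in activated and 2227 ± 55.9 CPM in rested control cells. Of 9 genes used as a check of activation, 8 moved in the direction of their list in both genotypes, while Btg1, listed as falling, rose.

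None of the 40 genes passed the test between cKO and control cells in either state (edgeR quasi-likelihood test). In activated cells 0 of 40 were called between cKO and control, against 0.0264% of all genes tested higher and 0.0158% lower (0.0422% in either direction), and in rested cells 0 of 40, against the same 0.0264%, 0.0158% and 0.0422%. The interaction, which asks whether activation moved a gene differently in cKO than in control cells, called 0 of 40 and 0% of all genes tested. At an unadjusted p below 0.05, edgeR gave 2 of the 40 in activated cells, 1 in rested cells and 1 in the interaction, beside 1142, 783 and 519 of all genes tested. DESeq2's Wald test likewise called 0 of the 40 in each. Intervals from the main fit, which treats the 2 libraries of a mouse as independent, bounded most genes when each gene was taken alone. The 95% interval of the log2 difference lay within 0.5 of 0 for 36 of 40 genes in activated cells and for 37 of 40 in rested cells. The exceptions in activated cells were Ezh2 (-0.10 to 0.55), Phf19 (-0.04 to 0.99), Chd5 (-0.82 to 0.62) and Pcgf2 (-0.35 to 0.87), and in rested cells Phf19, Chd5 and Pcgf2.

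The smallest p in activated cells belonged to Jarid2. It had 81.2, 79.99 and 80.1 CPM in activated cKO cells against 92.4 and 101 CPM in activated control cells, and 71.1, 73.1 and 72.4 CPM in rested cKO cells against 76.7 and 77.4 CPM in rested control cells. The cKO libraries lay below the control libraries in both states without overlap. The log2 difference was -0.26 ± 0.06 in activated cells (edgeR adjusted p = 0.481) and -0.09 ± 0.06 in rested cells (edgeR adjusted p = 1), so it did not pass over all genes. Within sex, the activated difference was -0.20 among males and -0.33 among females. The interaction was -0.17 ± 0.08 (edgeR adjusted p = 1).

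Phc3 had 175, 169 and 139.7 CPM in activated cKO cells against 197 and 170.1 CPM in activated control cells, with overlap between the groups. Its log2 difference was -0.22 ± 0.06 (edgeR adjusted p = 0.656). Pcgf3 had 30.4, 31.5 and 29.5 CPM in activated cKO cells against 34.2 and 32.5 CPM in activated control cells, all cKO values being lower, with a log2 difference of -0.13 ± 0.06 (edgeR adjusted p = 0.825). Phf19 differed by 0.48 ± 0.24 (edgeR adjusted p = 0.836). In rested cells the smallest p belonged to Rybp, with 26.4, 27.98 and 30.6 CPM in cKO against 31.4 and 32.1 CPM in control cells and a log2 difference of -0.16 ± 0.07 (edgeR adjusted p = 1). Libraries of cKO and control mice did not overlap for 6 of the 40 genes in activated cells, where 2 were higher and 4 lower in cKO, against 7.7% and 9.36% of all genes tested. In rested cells 2 were higher and 5 lower without overlap, against 8.96% and 8.69%. The 18 replication and cycling genes, with which Ezh2 moved by mouse in activated cells, had a median log2 difference of 0.21 between activated cKO and control cells. Of them 17 of 18 were positive and 0 called, beside 9623 positive of all 18966 genes tested. The log2 difference of Ezh2 was 0.22 ± 0.14, and a link between it and these genes was not tested.

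**Figure D4:**
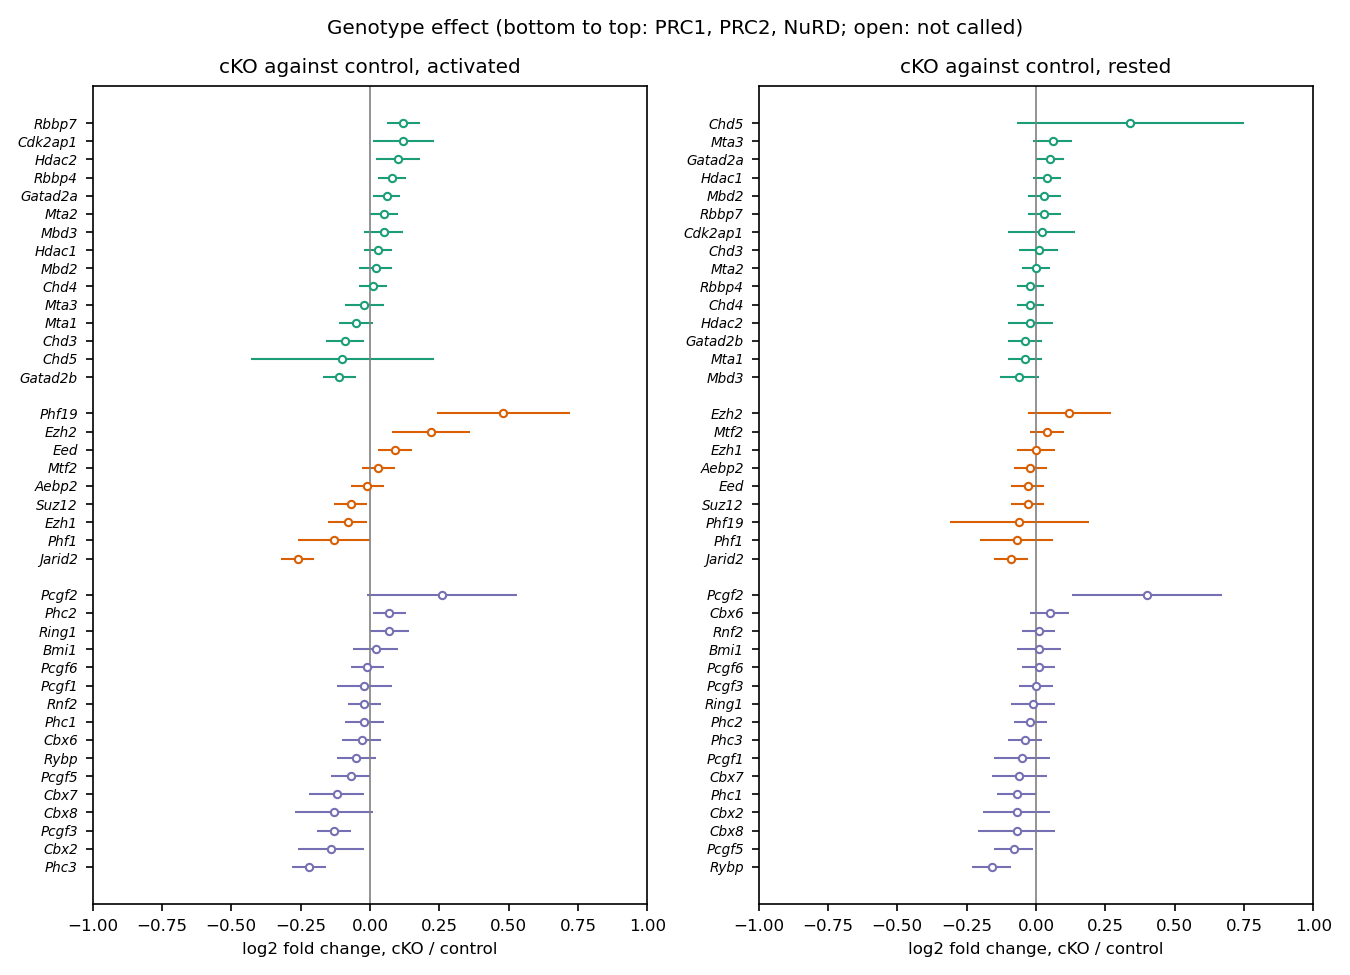
Log2 fold change, cKO over control, of the 40 subunit genes in activated (left) and rested cells (right), with NuRD in green, PRC2 in orange and PRC1 in purple and bars for the standard error. All points are open because none was called, and the widest bars belong to Chd5, Phf19 and Pcgf2.

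The fit also held a term for sex, which was examined after the values had been seen. The male mice have names that begin with one number and the females names that begin with another, so that sex and whatever this number marks cannot be told apart. Between female and male mice 4 of the 40 genes were called, 1 higher and 3 lower in females, against 1.24% and 2.83% of all genes tested (4.07% in either direction). Pcgf2, a canonical PRC1 partner also known as Mel18, had 9.22 and 7.41 CPM in activated cells of the females, against 16.7, 12.6 and 11.5 CPM in activated cells of the males. It had 4.67 and 3.71 CPM in rested cells of the females, against 15.9, 12.3 and 11.3 CPM in rested cells of the males. All female libraries lay below all male ones, in both genotypes. The log2 difference, female over male, was -1.09 ± 0.20 (edgeR adjusted p = 0.0224), as 1 value for both states. With a term that lets sex differ by state, it was -0.66 ± 0.14 in activated cells (edgeR adjusted p = 0.00874) and -1.59 ± 0.15 in rested cells (edgeR adjusted p = 0.000107). Activation in females minus activation in males was 0.94 ± 0.20 for Pcgf2 (edgeR adjusted p = 0.0484) and -1.46 ± 0.31 for Chd5 (edgeR adjusted p = 0.0473), the 2 of the 40 genes called, 1 in each direction, against 0.633% of all genes tested higher and 0.258% lower (0.891% in either direction). Neither was called without cKO mouse 3, control mouse 1 or control mouse 2, with log2 values of 0.90 to 0.97 for Pcgf2 (edgeR adjusted p = 0.409 to 0.922) and -1.61 to -1.39 for Chd5 (edgeR adjusted p = 0.359 to 0.922). Within activated cells 8 of the 40 genes were called higher and 4 lower in females than in males, against 6.36% and 5.93% of all genes tested (12.3% in either direction), among them Ezh2 higher (0.53 ± 0.13, edgeR adjusted p = 0.0455) and Cbx7 lower (-0.38 ± 0.06, edgeR adjusted p = 0.00252). Within rested cells Chd5 and Phc1 were called higher and Pcgf2 lower, against 0.659% and 1.59% of all genes tested (2.25% in either direction). Without cKO mouse 3 none was called in either state, and without either control mouse none was called higher. In activated cells, 4 were called higher without cKO mouse 2, and lower were 2 without control mouse 1 and 1 without control mouse 2. In the fit with 1 value for both states, Ezh1 (-0.22 ± 0.05, edgeR adjusted p = 0.0262) and Phc3 (-0.18 ± 0.04, edgeR adjusted p = 0.0359) were lower and Mbd3 (0.20 ± 0.05, edgeR adjusted p = 0.0423) higher in females by smaller amounts. The 18 replication and cycling genes had a median log2 difference of 0.27 between females and males, with 17 of 18 positive and 4 called higher. Of all 18966 genes tested, 9551 were positive and 235 called higher. What part the 18 genes have in these differences was not tested. Without cKO mouse 3, control mouse 1 or control mouse 2, none of the 4 genes passed. The Pcgf2 difference then was -1.09, -1.10 and -1.08, with edgeR adjusted p = 0.176, 0.0787 and 0.106.

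**Figure D5:**
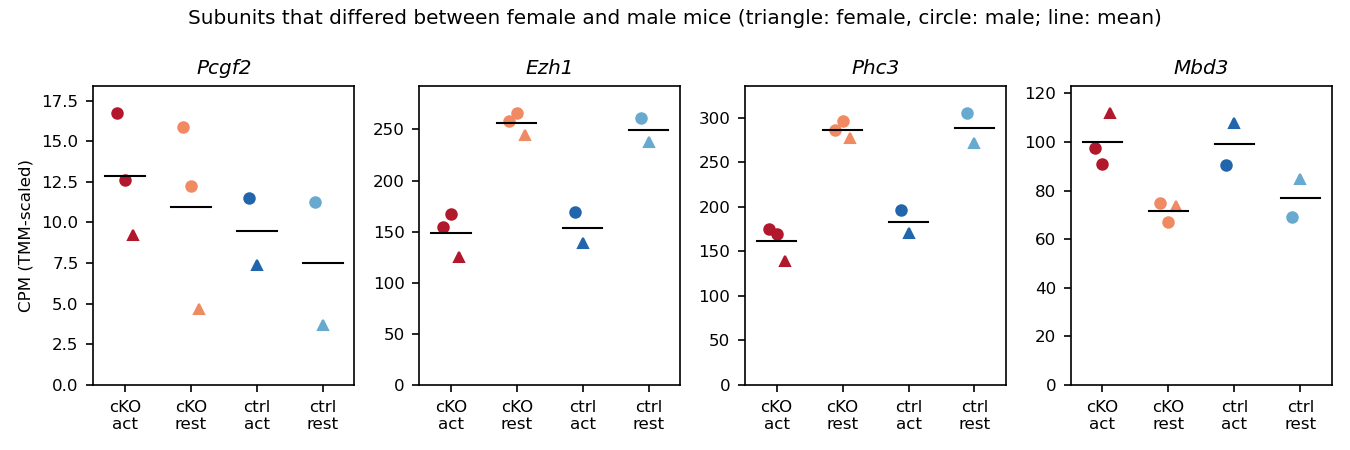
Level in CPM (TMM-scaled) of the 4 subunit genes called between female (triangles) and male mice (circles) over both states, in each library, by group (act, activated; rest, rested; ctrl, control; line, group mean). Pcgf2 was at 3.71 to 9.22 CPM in female and 11.3 to 16.7 CPM in male libraries, while the other 3 genes differ more by activation than by sex.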

How the data were processed

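The 10 bulk RNA libraries came from 5 mice. Libraries were made with a stranded mRNA kit, per the labels' protocols, and the build was mm39 and the tools Subread, FastQC and MultiQC, per the submitters' processing notes. The sources used here give no versions, annotation or strand setting of the counting, which leaves antisense, overlapping and near-identical genes uncertain. The deposited counts were read as whole numbers per gene. The deposited FPKM equal the count divided by gene length and library total (relative deviation at most 9.4e-07). They were used for shares between paralogs, which carry no test.

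EdgeR 4.0.16 (R 4.3.3) was run on the counts with TMM scaling, the filterByExpr filter by group and a robust quasi-likelihood fit of 4 group means plus sex over all 10 libraries (biological coefficient of variation 9.14%, 5 residual degrees of freedom, median prior 7.95). All groups thus contribute to a common dispersion. Standard errors were computed back from the log2 fold change and the F statistic, and genes with an adjusted p below 0.05 over all 18966 genes tested count as called. No library repeated another (chi-square over genes, per degree of freedom, 9.23 to 46.0). Both libraries of a mouse come from the same animal. After subtraction of the group means they correlated at 0.41, 0.19 and 0.42 in cKO mice and 0.45 in both control mice. With 2 control mice their deviations are equal and opposite, which makes those 1 value. Mouse was therefore tried as a block.

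Alternatives were DESeq2 size factors, 2 other low-count filters, no sex term, DESeq2 1.42.0, limma 3.58.1 on log2(FPKM + 0.5), only the groups compared, mouse blocks, each mouse left out and, added after seeing the data, plain library totals. A term for sex by state was also added after seeing the data. Python 3.11.15 made tables and figures. Genes with values in every library were, per activation comparison, the 4 called genes of each complex with the largest log2 fold change, per genotype comparison the 4 with the smallest p, and paralogs that moved in opposite directions. Of other lists, up to 4 genes by smallest p were eligible. The 40 genes, the lists and the tests were chosen with earlier results of these data known.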

Additional observations from a re-analysis of the deposited data

Results flagged for a closer look

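In the main fit, a test of the difference itself called Chd5 and Pcgf2 as moved by activation by different amounts in female and male mice. For Chd5, activation in females minus activation in males was -1.46 ± 0.31 on the log2 scale (edgeR adjusted p = 0.0473), with log2 ratios of activated over rested of 1.16 and 1.83 in the 2 females and 2.80, 2.37 and 3.45 in the 3 males. For Pcgf2 it was 0.94 ± 0.20 (edgeR adjusted p = 0.0484), with log2 ratios of 0.98 and 1.00 in the 2 females and 0.08, 0.04 and 0.03 in the 3 males. The ranges of females and males did not overlap for either gene. These are the values the test used, and no share over all genes tested is given for comparison. The calls did not hold in every fit with 1 mouse left out, as given above. Without cKO mouse 3, control mouse 1 or control mouse 2, the difference was -1.61, -1.40 and -1.39 for Chd5. For Pcgf2 it was 0.97, 0.90 and 0.92. Sex also cannot be separated from the numbering of the mice. The test was added after the Pcgf2 values had been seen.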

How the results depend on the processing

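After activation, the counts of subunit genes called stayed within 1.5 times of 19 higher and 14 lower in cKO cells and 18 higher and 14 lower in control cells under all alternatives. Across them they were 18 to 22 higher and 14 lower in cKO cells and 14 to 20 higher and 12 to 14 lower in control cells. With the mouse as a replicate block they were 19 and 14 in cKO cells and 18 and 14 in control cells. Leaving out 1 mouse gave 18 to 19 higher and 14 lower in cKO cells and 14 to 18 higher and 12 to 14 lower in control cells. With the stricter filter, at least 5 CPM in 2 libraries, Chd5 and Phf19 were not tested. Between cKO and control cells, and in the interaction, 0 subunit genes were called under every alternative, including the block and each mouse left out. No called log2 fold change reversed under an alternative.

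Calls between female and male mice were unstable. In place of 1 higher and 3 lower in females there were 3 and 5 with no low-count filter, 0 and 3 with the stricter filter, 3 and 3 with DESeq2, 0 and 1 with limma on FPKM, and 3 and 3 with the replicate block. Leaving out 1 mouse gave 0 to 1 in each direction. For activation in females minus activation in males, in place of 1 higher and 1 lower there were 2 and 3 with no low-count filter, 0 and 0 with the stricter filter, which does not test Chd5, 1 and 3 with the replicate block and 0 and 1 with plain library totals. There Pcgf2 had adjusted p = 0.0593 with the stricter filter and 0.0503 with plain totals (edgeR). Leaving out 1 mouse gave 0 to 2 higher and 0 to 3 lower. Within states the stricter filter gave 1 higher in place of 2 in rested females. Leaving out 1 mouse gave 0 to 3 higher and 0 to 1 lower in rested females, and 0 to 9 higher and 0 to 6 lower in activated females, in place of 8 and 4. The cause was not tested.

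Over all genes tested, counts between cKO and control moved more. In rested cells 5 were higher and 3 lower, but 135 and 69 with no low-count filter, 21 and 8 with DESeq2 and 20 and 5 without cKO mouse 2. In activated cells 5 were higher and 3 lower, but 118 and 93 with no low-count filter, 11 and 8 with DESeq2 and 35 and 14 without cKO mouse 2. The interaction called 0 and 0, but 22 and 17 with no low-count filter, 2 and 1 with DESeq2 and 2 and 1 without cKO mouse 3. With 2 control mice and 1 female in each genotype, the precision of the differences between genotypes is read from the printed intervals. Those come from the fit without mouse blocks.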
